A study of Rattus rattus with 24 samples.

Results

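The genes that copy DNA in S phase were examined as a group in cultured rat oligodendrocyte precursor cells (OPCs), the cells that divide and then mature into the myelinating oligodendrocytes of the brain. The group was a list of gene symbols and held 46 genes in 11 roles: origin licensing, the MCM ring, helicase activation, the clamp and its loader, the polymerases and primase, single strand binding, nucleotide supply, Okazaki fragment joining, chromatin copying, E2F control and repair. Of these, 43 had a probe set annotated to that gene alone, out of 14217 genes with such a probe set on the array, and each was read by the one with the highest mean. Cdc6 and Gins2 had no probe set in the annotation used, and Rrm2 had probe sets shared with a second symbol only, so these 3 have no value here.

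OPCs were selected with A2B5 beads from the cortex of rat pups (Rattus rattus in the labels, Sprague Dawley pups of 4 to 7 days in the methods), expanded in PDGF, and cultured for 48 h or 96 h with T3 at 45 nM plus quetiapine at 1 µM, T3 alone, quetiapine alone, or neither agent as control. Per the methods the compounds were given in DMSO at 0.1% of the volume, and control cultures had 0.1% DMSO as vehicle. T3 (triiodothyronine) is the active thyroid hormone, and quetiapine is an antipsychotic drug. Each of the 8 groups had 3 arrays, and replicates 1, 2 and 3 were biological replicates that each gave a sample of every condition. The cells are a bead-selected primary culture rather than a pure line, and while the labels name SATO medium the methods name a B27 supplement that carries a little T3, also in controls.

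Replication starts when ORC, CDC6 and CDT1 load the ring of MCM2 to MCM7 onto origins in G1. CDC45, the GINS complex and MCM10 then turn the ring into an active helicase, RPA coats the exposed single strands, polymerase alpha with primase starts each strand, and the RFC clamp loader places the PCNA clamp that holds polymerases delta and epsilon on DNA. FEN1 and LIG1 finish the short Okazaki fragments of the lagging strand, and CAF-1 and UHRF1 carry histones and DNA methylation onto the copies. E2F factors switch most of these genes on at the entry into S phase, and the genes are transcribed at low levels in cells that have left the cycle.

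Values are log2 expression as deposited, and a change is the difference of group means on that scale with its standard error (SE). A member is said to rise or fall where limma's p, adjusted over 31042 probe sets, was under 0.05 without a replicate block. Each ± is the SE of that fit, also beside an adjusted p with the block. The fit pools 1 spread over its groups. At 96 h T3 plus quetiapine arrays scattered most (median SD of a member 0.37, against 0.15 in control). The SE, interval and p of their changes use the pooled spread, not their own. Because the replicate numbers pair the cultures, the adjusted p of the fit with replicate number as a block is given wherever it changes the call of a member against control at 96 h, and elsewhere beside the counts and the members named. The calls without the block leave this pairing out, and the block gave no fewer members called in any comparison. The shares of all probe sets that fell or rose are of adjusted calls, and counts at an unadjusted p have no such share beside them. At 96 h 30 of the 43 members fell and 1, Fen1, rose with T3 plus quetiapine against control, where 15.7% of all probe sets fell and 13.6% rose. With T3 alone 19 members fell and none rose, against a background of 6.07% falling, and 36 fell with the replicate block, against 14.3%. With quetiapine alone no member fell and Fen1 rose, where 2.24% of all probe sets fell and 3.65% rose. The median change of the 43 members was -0.79 with T3 plus quetiapine, -0.59 with T3 and -0.24 with quetiapine, and the medians over all probe sets were 0.02, -0.01 and 0.00229 in the same order. In bulk RNA fewer cycling cells and less of these RNAs per cell cannot be told apart.

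**Figure D1:**
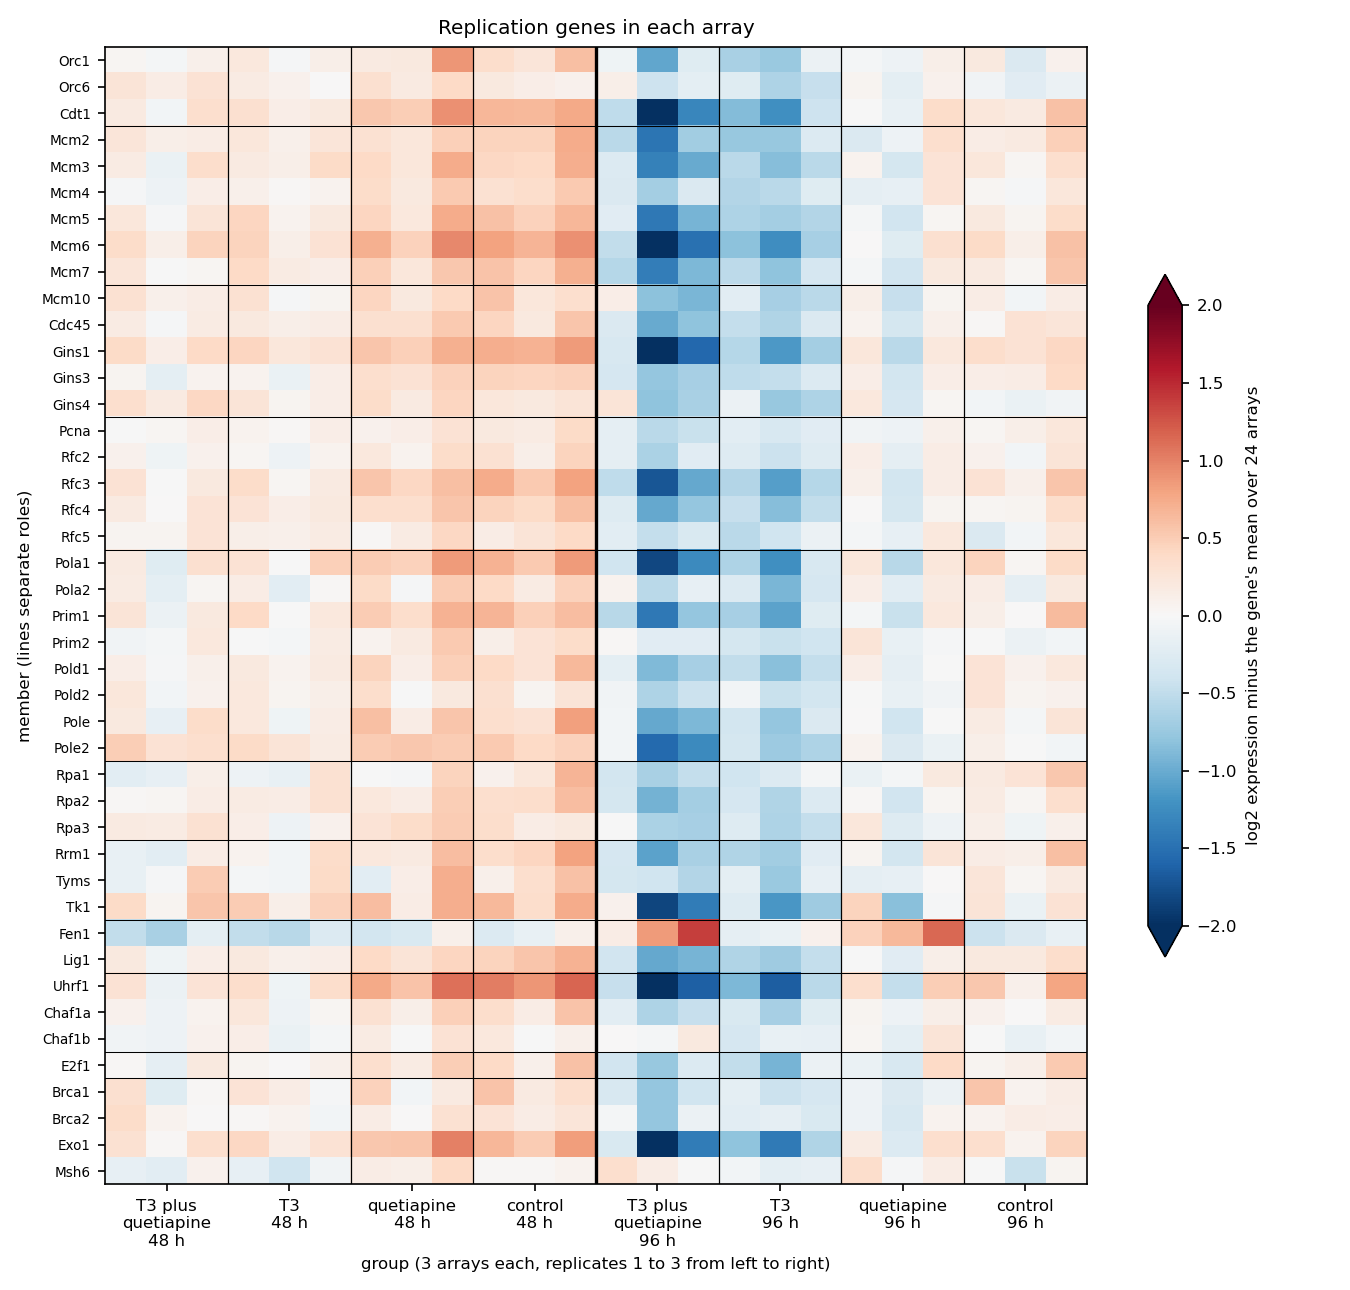
Log2 expression of the 43 members (rows, grouped by role) in the 24 arrays (columns, 3 per group), as the difference from each gene's mean over the arrays; red is above and blue below that mean, and the colour scale ends at 2 in either direction. Most rows are bluest in T3 plus quetiapine and T3 cultures at 96 h and reddest in control and quetiapine cultures at 48 h, and Fen1 is reddest in T3 plus quetiapine and quetiapine cultures at 96 h.

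No array of T3 plus quetiapine reached any control array at 96 h in 31 members that were lower, where this held for 20.5% of all probe sets. The same separation below control held in 37 members with T3, against 15.1% of all probe sets, and in 6 members with quetiapine, against 11.2%. Each of the 12 arrays was then left out in turn, in fits without the replicate block. Of the 31 members called with T3 plus quetiapine 24 were called in every fit, and the count was 24 to 35. The other 7 (Mcm4, Rfc2, Pold2, Pole, Pole2, Chaf1a and E2f1) lost the call in at least 1 fit, all of them without T3 plus quetiapine replicate 2 and all but Chaf1a also without control replicate 1, at highest adjusted p values of 0.0506 to 0.157. The T3 count of 19 moved more. With 1 control array left out it was 5, 7 and 2 for control replicates 1, 2 and 3. With 1 T3 array left out it was 8, 1 and 12 for T3 replicates 1, 2 and 3. Of the T3 plus quetiapine arrays, which entered this comparison through the shared spread, leaving out replicate 3 gave 10 and replicate 1 gave 31. Lig1 was the member called with T3 in every one of these 12 fits, and the other 18 reached adjusted p values of 0.0555 to 0.174 in their weakest fit. No share of all probe sets is given for the fits with an array left out. The fit with the block was not repeated with arrays left out, so how far the pairing bears on these moves was not tested. Whether they were particular to the members was not tested.

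**Figure D2:**
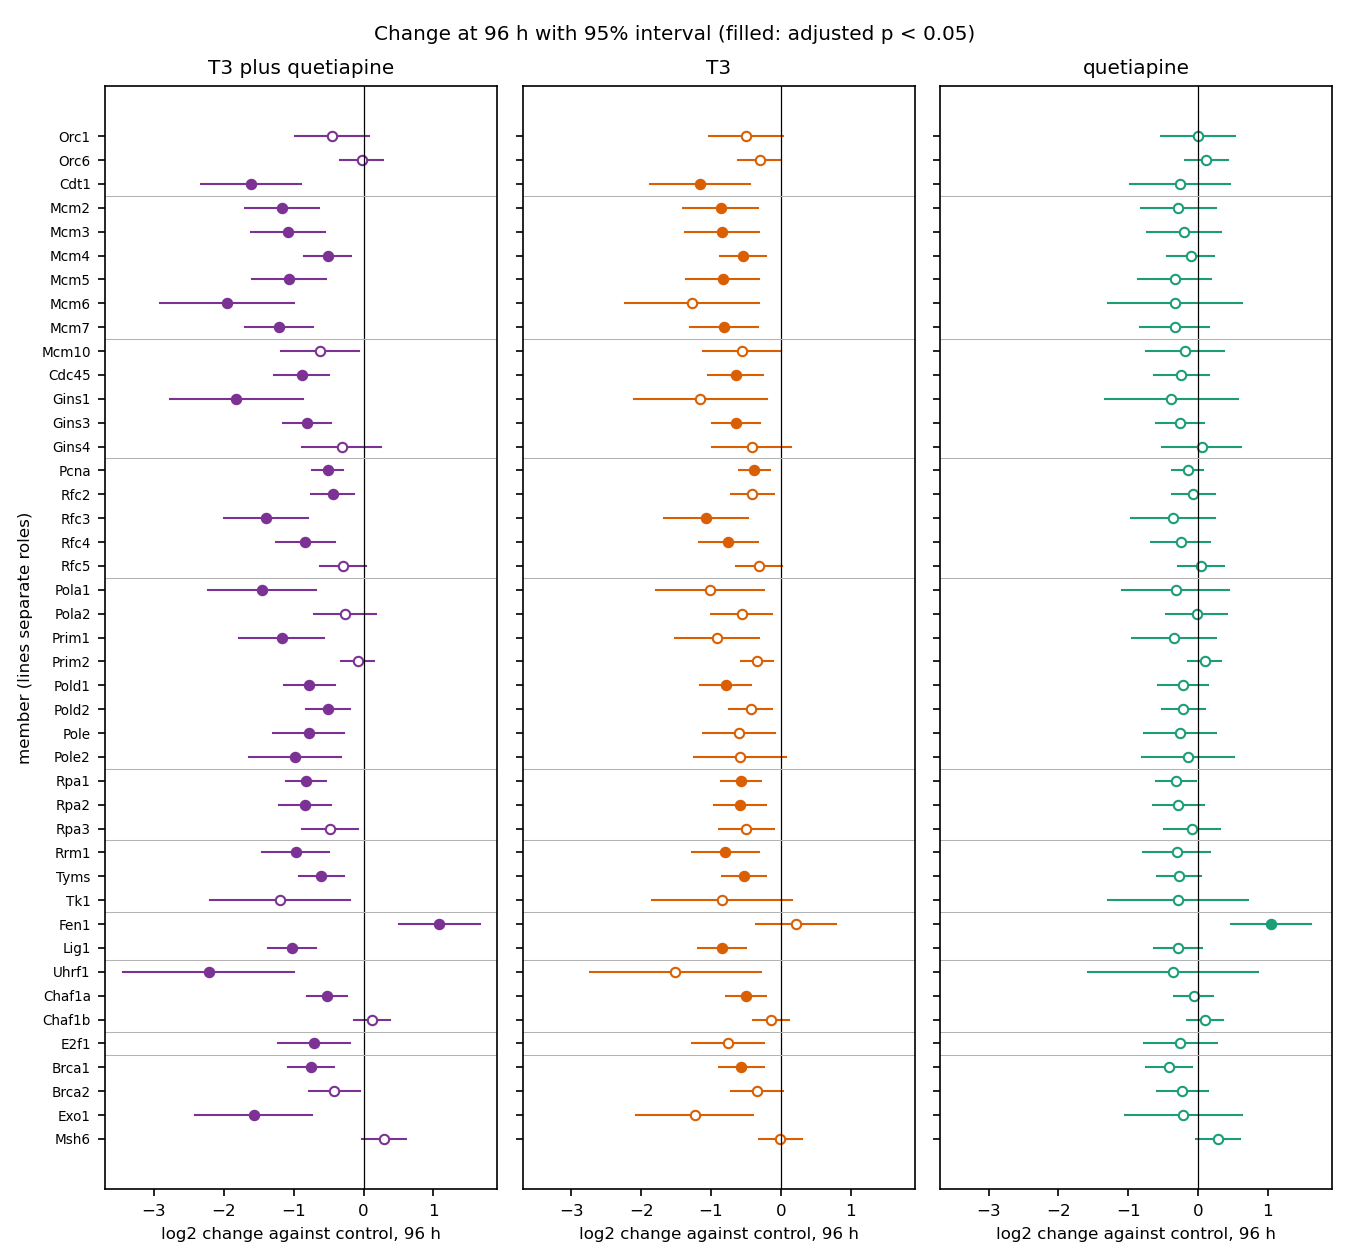
Log2 change against control at 96 h of each member with T3 plus quetiapine, T3 and quetiapine (points, 3 panels), with the 95% interval of the fit as a line; filled points have an adjusted p under 0.05 without the replicate block. With T3 plus quetiapine 30 points are filled below 0 and Fen1 is filled above it; with T3 19 are filled below 0, and with quetiapine only Fen1 is filled.

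Among the licensing genes, Cdt1, the loading factor of the MCM ring, fell with T3 plus quetiapine and with T3. Its log2 expression at 96 h was 7.68, 6.17 and 6.88 in T3 plus quetiapine, 7.32, 6.96 and 7.77 in T3, 8.18, 8.04 and 8.54 in quetiapine and 8.41, 8.36 and 8.77 in control cultures. All arrays of both T3 groups lay below every quetiapine and control array, and the change was -1.60 ± 0.33 with T3 plus quetiapine (adjusted p = 0.00356, 3.04-fold lower) and -1.16 ± 0.33 with T3 (adjusted p = 0.0409). Orc1, an ATP-binding subunit of the origin recognition complex, was a dim probe set (mean log2 under 6) with 4.36, 3.41 and 4.21 in T3 plus quetiapine, 3.80, 3.71 and 4.33 in T3, 4.41, 4.34 and 4.56 in quetiapine and 4.64, 4.15 and 4.54 in control cultures. Its groups overlapped, and its change with T3 plus quetiapine of -0.45 ± 0.24 passed with the replicate block only (adjusted p = 0.194, and 0.0444 with the block), as did its T3 change of -0.49 ± 0.24 (adjusted p = 0.232, and 0.0458 with the block). Orc6, the small subunit of the same complex, changed by -0.03 with T3 plus quetiapine and -0.30 with T3 (adjusted p = 0.906 and 0.203; the T3 change passed with the block, at 0.0221).

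All 6 subunits of the MCM ring, the core of the replicative helicase, fell with T3 plus quetiapine at 96 h and 5 of 6 fell with T3. Mcm6 had the largest change of the ring, with 9.12, 6.82 and 8.12 in T3 plus quetiapine, 8.79, 8.37 and 8.95 in T3, 9.62, 9.38 and 9.93 in quetiapine and 9.99, 9.72 and 10.20 in control cultures. The T3 plus quetiapine arrays were the most scattered and lay below all control arrays, for a change of -1.95 ± 0.44 (3.87-fold lower, 95% interval -2.91 to -0.99, adjusted p = 0.00619). With T3 Mcm6 changed by -1.27 ± 0.44, which passed with the replicate block only (adjusted p = 0.0886, and 0.0163 with the block). Mcm7 had 10.10, 9.28 and 9.76 in T3 plus quetiapine, 10.15, 9.86 and 10.33 in T3, 10.62, 10.28 and 10.87 in quetiapine and 10.85, 10.71 and 11.22 in control cultures. It fell by a log2 change of -1.21 ± 0.22 with T3 plus quetiapine (adjusted p = 0.00203) and -0.81 ± 0.22 with T3 (adjusted p = 0.038), and its groups did not overlap with control in either comparison. Mcm2, Mcm3, Mcm4 and Mcm5 fell by log2 changes of -1.17, -1.08, -0.51 and -1.07 with T3 plus quetiapine, Mcm4 the least of the ring.

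Of the 5 measured genes that activate the helicase, 3 fell with T3 plus quetiapine and 2 with T3. Gins1, a subunit of the GINS complex, had 7.38, 5.18 and 6.13 in T3 plus quetiapine, 7.13, 6.55 and 7.01 in T3, 7.93, 7.16 and 7.91 in quetiapine and 8.05, 7.98 and 8.12 in control cultures. T3 plus quetiapine replicate 2 was the lowest array by far, the groups did not overlap with control, and the change was -1.82 ± 0.43 with T3 plus quetiapine (adjusted p = 0.00836) and -1.15 ± 0.43 with T3 (adjusted p = 0.117, and 0.0198 with the block). Cdc45, the partner of GINS in the active helicase, had 8.19, 7.48 and 7.67 in T3 plus quetiapine, 8.0, 7.88 and 8.19 in T3, 8.55, 8.14 and 8.59 in quetiapine and 8.51, 8.77 and 8.72 in control cultures. It fell in both groups with T3, by log2 changes of -0.89 ± 0.18 and -0.65 ± 0.18 (adjusted p = 0.0035 with T3 plus quetiapine and 0.0396 with T3). Gins3 fell in both as well (-0.81 and -0.65), while Gins4, of the same complex, overlapped with control in both and changed by -0.31 and -0.41 (adjusted p = 0.409 and 0.363). Mcm10 passed with the block only, at changes of -0.62 with T3 plus quetiapine and -0.56 with T3 (adjusted p = 0.014 and 0.037 with the block, against 0.0916 and 0.198 without it).

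Among the clamp and clamp loader genes, 4 of 5 fell with T3 plus quetiapine and 3 of 5 with T3. Pcna, the sliding clamp, fell by log2 changes of -0.52 ± 0.10 with T3 plus quetiapine (adjusted p = 0.00294) and -0.38 ± 0.10 with T3 (adjusted p = 0.0326). Rfc3, a small subunit of the loader, had 8.28, 7.07 and 7.75 in T3 plus quetiapine, 8.19, 7.68 and 8.21 in T3, 8.88, 8.41 and 8.93 in quetiapine and 9.07, 8.88 and 9.34 in control cultures. Rfc4, another small subunit, had 9.0, 8.22 and 8.47 in T3 plus quetiapine, 8.78, 8.39 and 8.76 in T3, 9.25, 8.89 and 9.30 in quetiapine and 9.29, 9.30 and 9.59 in control cultures. Both lay below all control arrays in both T3 groups, with changes of -1.39 ± 0.27 and -1.07 ± 0.27 for Rfc3 (adjusted p = 0.0029 with T3 plus quetiapine and 0.0282 with T3) and -0.83 ± 0.19 and -0.75 ± 0.19 for Rfc4 (adjusted p = 0.00746 and 0.0289). Rfc5, at the probe set used, overlapped with control in both and changed by -0.29 and -0.31 (adjusted p = 0.178 and 0.232). Its second probe set changed by -0.40 with T3 plus quetiapine, which passed, and by -0.33 with T3, which did not (adjusted p = 0.0444 and 0.152). Rfc2 fell with T3 plus quetiapine (-0.44), and with T3 its change of -0.41 passed with the block (adjusted p = 0.0856, and 0.00339 with the block).

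Of the 8 polymerase and primase genes 6 fell with T3 plus quetiapine, and with T3 only Pold1, the catalytic subunit of polymerase delta, fell (-0.79 ± 0.16, adjusted p = 0.0114); 7 of the 8 fell with T3 with the replicate block. Pola1, the catalytic subunit of polymerase alpha, had 6.86, 5.44 and 5.99 in T3 plus quetiapine, 6.64, 6.03 and 6.94 in T3, 7.49, 6.71 and 7.49 in quetiapine and 7.71, 7.30 and 7.64 in control cultures. Prim1, the catalytic subunit of primase, had 8.80, 7.93 and 8.58 in T3 plus quetiapine, 8.70, 8.28 and 9.11 in T3, 9.32, 8.91 and 9.56 in quetiapine and 9.47, 9.37 and 9.99 in control cultures. Both lay below control in all arrays of both T3 groups, with changes of -1.45 ± 0.35 and -1.17 ± 0.27 with T3 plus quetiapine (adjusted p = 0.00902 and 0.00775), and of -1.01 ± 0.35 and -0.92 ± 0.27 with T3 (adjusted p = 0.0888 and 0.0536, and 0.00371 and 8.81e-04 with the block). With T3 plus quetiapine Pola2, the partner of Pola1, changed by -0.27 ± 0.20 and Prim2, the large subunit of primase, by -0.08 ± 0.11, and neither passed (adjusted p = 0.364 and 0.612; Pola2 passed with the block, at 0.0245). With T3 all their arrays lay below control, and Pola2 changed by -0.56 ± 0.20 and Prim2 by -0.34 ± 0.11, which passed with the block only (adjusted p = 0.0987 and 0.0651, and 9.25e-04 and 0.00845 with the block). Pold1, Pold2, Pole and Pole2 fell by log2 changes of -0.77, -0.51, -0.79 and -0.98 with T3 plus quetiapine. With T3 Pold2 and Pole changed by -0.43 and -0.60 and passed with the block only (adjusted p = 0.00426 and 0.0217 with the block, against 0.0747 and 0.133 without it).

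The genes of RPA, the trimer that coats single-stranded DNA, fell in 2 of 3 members in both groups with T3. Rpa1, the large subunit, had 9.30, 9.03 and 9.19 in T3 plus quetiapine, 9.26, 9.39 and 9.63 in T3, 9.54, 9.62 and 9.86 in quetiapine and 9.84, 9.95 and 10.20 in control cultures. Rpa2, the middle subunit, had 8.89, 8.29 and 8.57 in T3 plus quetiapine, 8.91, 8.64 and 8.97 in T3, 9.27, 8.86 and 9.29 in quetiapine and 9.40, 9.28 and 9.58 in control cultures. Rpa1 changed by -0.83 ± 0.13 with T3 plus quetiapine (adjusted p = 7.92e-04) and -0.57 ± 0.13 with T3 (adjusted p = 0.0176), and Rpa2 by -0.84 ± 0.17 and -0.58 ± 0.17 (adjusted p = 0.00326 and 0.0452). Rpa1 was also 1 of 2 members, with Brca1, that fell with quetiapine alone at 96 h when the replicate block was fitted (-0.32 ± 0.13, adjusted p = 0.189, and 0.0402 with the block), where 9.26% of all probe sets fell. Rpa3, the small subunit, changed by -0.48 and -0.49 and passed with the block only (adjusted p = 0.00393 and 0.00652 with the block).

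For nucleotide supply, 2 of 3 measured genes fell in both groups with T3. Rrm1, the large subunit of ribonucleotide reductase, had 9.50, 8.78 and 9.20 in T3 plus quetiapine, 9.25, 9.14 and 9.62 in T3, 9.90, 9.48 and 10.10 in quetiapine and 9.99, 9.96 and 10.44 in control cultures. It changed by -0.97 ± 0.22 with T3 plus quetiapine (adjusted p = 0.0065) and -0.79 ± 0.22 with T3 (adjusted p = 0.0389), without overlap with control. Tk1, the thymidine kinase of S phase cells, had 8.84, 6.92 and 7.36 in T3 plus quetiapine, 8.50, 7.60 and 8.05 in T3, 9.20, 7.92 and 8.73 in quetiapine and 9.01, 8.63 and 9.05 in control cultures. Its T3 plus quetiapine replicate 1 lay among the control arrays while replicates 2 and 3 were far below them, and the change of -1.19 ± 0.46 passed with the block only (adjusted p = 0.0724, and 0.00291 with the block), as did its T3 change of -0.85 ± 0.46 (adjusted p = 0.284, and 0.0302 with the block). Tyms, thymidylate synthase, was a dim probe set (mean log2 of 5.76) and fell with log2 changes of -0.60 with T3 plus quetiapine and -0.52 with T3.

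The pair of genes that finish Okazaki fragments moved in opposite directions. Lig1, DNA ligase I, had 8.50, 7.86 and 7.95 in T3 plus quetiapine, 8.27, 8.17 and 8.41 in T3, 8.87, 8.66 and 8.99 in quetiapine and 9.07, 9.07 and 9.24 in control cultures. It fell with T3 plus quetiapine (-1.02 ± 0.15, 2.03-fold lower, adjusted p = 5.98e-04) and with T3 (-0.84 ± 0.15, adjusted p = 0.00615), with no overlap with control, and its SD was 0.35 in T3 plus quetiapine, 0.12 in T3 and 0.0946 in control cultures (n = 3 each). Fen1, the flap endonuclease that trims the fragments before ligation, had 9.05, 9.76 and 10.28 in T3 plus quetiapine, 8.73, 8.77 and 9.0 in T3, 9.37, 9.56 and 10.05 in quetiapine and 8.48, 8.61 and 8.75 in control cultures. All T3 plus quetiapine and all quetiapine arrays lay above all control arrays, and Fen1 rose with T3 plus quetiapine (1.09 ± 0.26, 2.12-fold higher, adjusted p = 0.00931) and with quetiapine (1.05 ± 0.26, 2.07-fold higher, adjusted p = 0.0409, and 0.00159 with the block). With T3 alone its change was 0.22 ± 0.26 (adjusted p = 0.686). The call with T3 plus quetiapine held in all 12 fits that left out 1 array, at adjusted p values up to 0.0342. The call with quetiapine was lost in 10 of them, with adjusted p values up to 0.137, and was kept without T3 plus quetiapine replicate 1 or replicate 3.

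Fen1 is a single probe set, and in the RefSeq assembly Rrattus_CSIRO_v1 it lies between Fads1, a fatty acid desaturase, and Tmem258, with Myrf, a transcription factor of myelination, next in order. At 96 h Myrf had 11.87, 11.80 and 11.76 in T3 plus quetiapine, 11.58, 11.45 and 11.58 in T3, 11.84, 11.74 and 11.66 in quetiapine and 11.29, 11.17 and 11.04 in control cultures. Myrf rose in all 3, by log2 changes of 0.64, 0.37 and 0.58 with T3 plus quetiapine, T3 and quetiapine (adjusted p = 2.43e-04, 0.0175 and 0.00272). Fads1 changed by 0.98, 0.58 and 0.09 in the same order (adjusted p = 0.00614, 0.12 and 0.866; the T3 change passed with the block, at 0.0032), so Fads1 was not called with quetiapine alone, where Fen1 rose. Fads2, the desaturase gene beyond Fads1, rose with T3 plus quetiapine and T3 (1.20 and 0.62, adjusted p = 2.28e-04 and 0.0252) and changed by 0.23 with quetiapine (0.463). Tmem258 was not called in any of these comparisons, at -0.14, -0.17 and 0.03. With T3 plus quetiapine at 48 h Fads1 (0.91, adjusted p = 0.0174) and Fads2 (1.32, 0.00291) rose, where Fen1 changed by -0.34 (0.236). Fads3, beyond Fads2, rose at 48 h (0.75, 0.00178) and changed by 0.23 at 96 h (0.356). Myrf and Tmem258 were not called at 48 h (0.10 and -0.06, adjusted p = 0.621 and 0.825). Whether neighbouring transcription had a part in the Fen1 signal was not tested.

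**Figure D3:**
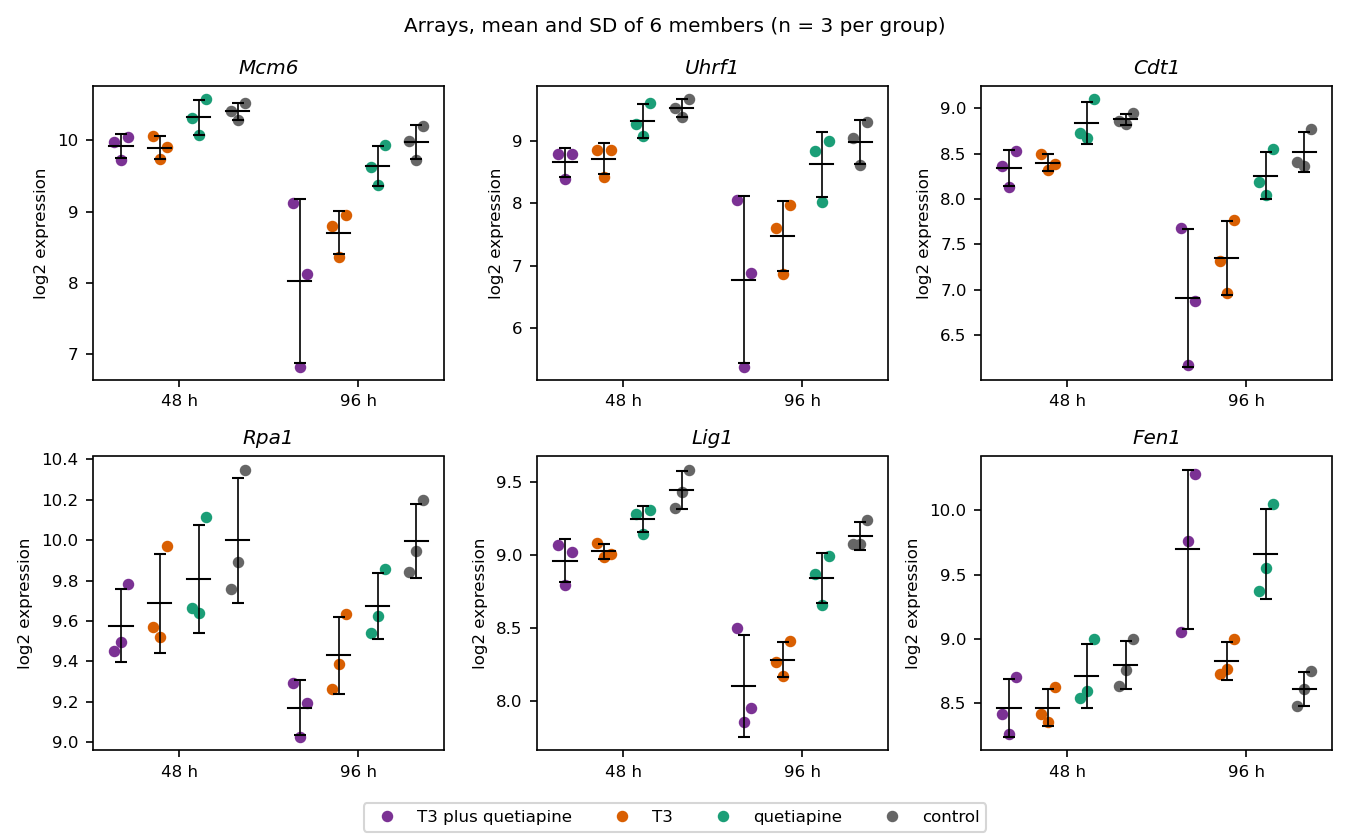
Log2 expression of Mcm6, Uhrf1, Cdt1, Rpa1, Lig1 and Fen1 in each array (points) with the group mean and SD (lines, n = 3), for T3 plus quetiapine, T3, quetiapine and control from left to right at 48 h and at 96 h. At 96 h the first 5 genes are lower in both groups with T3 than in control, and Fen1 is higher in both groups with quetiapine.

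Of the chromatin genes, Uhrf1, which brings DNA methylation to newly copied DNA, had the largest change of all members. At 96 h it had 8.05, 5.37 and 6.88 in T3 plus quetiapine, 7.61, 6.86 and 7.97 in T3, 8.85, 8.03 and 9.01 in quetiapine and 9.05, 8.61 and 9.31 in control cultures. The T3 plus quetiapine arrays all lay below control but were far apart, with replicate 2 the lowest, so the mean of 6.77 carried an SD of 1.34, against 8.99 with an SD of 0.35 in control (n = 3 each). The change was -2.22 ± 0.56 with T3 plus quetiapine (4.66-fold lower, adjusted p = 0.0112) and -1.51 ± 0.56 with T3 (adjusted p = 0.11, and 0.00892 with the block). Chaf1a, the large subunit of the histone chaperone CAF-1, had 7.96, 7.55 and 7.72 in T3 plus quetiapine, 7.87, 7.51 and 7.93 in T3, 8.23, 8.08 and 8.29 in quetiapine and 8.26, 8.19 and 8.35 in control cultures. It fell by the smaller log2 changes of -0.52 ± 0.13 and -0.49 ± 0.13 (adjusted p = 0.011 with T3 plus quetiapine and 0.0312 with T3). Chaf1b, the middle subunit of the same chaperone, overlapped with control in both and changed by 0.12 ± 0.12 and -0.14 ± 0.12 (adjusted p = 0.499 and 0.508).

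E2f1, the activating factor of S phase genes, had 7.36, 6.99 and 7.46 in T3 plus quetiapine, 7.24, 6.80 and 7.62 in T3, 7.60, 7.42 and 8.14 in quetiapine and 7.80, 7.86 and 8.26 in control cultures. It fell with T3 plus quetiapine (-0.71 ± 0.24, adjusted p = 0.0436), and with T3 its change of -0.75 ± 0.24 passed with the block only (adjusted p = 0.0635, and 8.16e-04 with the block). Of the 4 repair genes 2 fell with T3 plus quetiapine. Exo1, an exonuclease of mismatch repair and end resection, had 6.23, 4.39 and 5.14 in T3 plus quetiapine, 5.74, 5.12 and 5.93 in T3, 6.70, 6.26 and 6.88 in quetiapine and 6.88, 6.61 and 6.99 in control cultures. It changed by -1.57 ± 0.38 with T3 plus quetiapine (adjusted p = 0.00954) and -1.23 ± 0.38 with T3 (adjusted p = 0.0612, and 0.00611 with the block). Brca1, of recombination repair, was dim, with 4.87, 4.41 and 4.79 in T3 plus quetiapine, 5.0, 4.77 and 4.86 in T3, 5.09, 4.90 and 5.08 in quetiapine and 5.75, 5.26 and 5.33 in control cultures. It fell with T3 plus quetiapine (-0.75 ± 0.15, adjusted p = 0.00301) and T3 (-0.57 ± 0.15, adjusted p = 0.0307), and with quetiapine its arrays were also all below control, at -0.42 ± 0.15 (adjusted p = 0.136, and 0.00962 with the block). Brca2 changed by -0.42 with T3 plus quetiapine (adjusted p = 0.0813, and 0.0429 with the block). Msh6, of mismatch repair, changed by 0.30, and was the other member besides Fen1 to rise with T3 plus quetiapine when the block was fitted (adjusted p = 0.148, and 0.0475 with the block).

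To compare the agents with each other, quetiapine was set against T3. All 43 members had higher means in quetiapine than in T3 cultures at both times, with medians of 0.23 at 48 h and 0.46 at 96 h on the log2 scale. No member passed without the block at either time, where 0.528% of all probe sets rose at 48 h and 0.789% at 96 h. All quetiapine arrays lay above all T3 arrays in 16 members at 48 h, against 8.28% of all probe sets, and in 23 at 96 h, against 12.6%. With the replicate block 19 members rose at 48 h, against 4.45% of all probe sets, and 20 rose at 96 h, against 5.54%. At 96 h these 20 were led by Exo1 (1.02 ± 0.38, adjusted p = 0.0293 with the block and 0.216 without it), Cdt1 (0.91 ± 0.33, 0.0386 and 0.194) and Fen1 (0.83 ± 0.26, 0.00833 and 0.136). Without T3 plus quetiapine replicate 1, which took part in the shared spread alone, 4 members passed at 96 h.

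When T3 was added to quetiapine at 96 h, 6 members fell in T3 plus quetiapine against quetiapine cultures, where 3.79% of all probe sets fell: Cdt1 (-1.35 ± 0.33, adjusted p = 0.0313), Mcm6 (-1.62 ± 0.44, 0.0476), Mcm7 (-0.87 ± 0.22, 0.0388), Rfc3 (-1.04 ± 0.27, 0.0435), Rpa1 (-0.50 ± 0.13, 0.0416) and Lig1 (-0.74 ± 0.15, 0.0175). With the block 31 fell, against 11.1% of all probe sets. Single arrays, left out in fits without the block, moved the count of 6. It was 0 without T3 plus quetiapine replicate 2 or replicate 3 or without quetiapine replicate 3. It was 2 without quetiapine replicate 1, and 3 without quetiapine replicate 2, T3 replicate 1 or control replicate 2. Without T3 plus quetiapine replicate 1 it was 28. The fit with the block was not repeated with arrays left out. At 48 h none passed, where 0.229% of all probe sets fell, and 21 fell with the block, against 4.17%. All T3 plus quetiapine arrays lay below all quetiapine arrays at 48 h in 18 members, against 7.47% of all probe sets.

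When quetiapine was added to T3, no member passed at 48 h or at 96 h, where 0.0193% and 1.91% of all probe sets were called in either direction; 0 members at 48 h and 3 at 96 h had an unadjusted p under 0.05. The median change was -0.04 at 48 h and -0.17 at 96 h, with a median width of the 95% interval of 0.88 at 96 h. With the block 2 members rose at 96 h, against 5.44% of all probe sets: Fen1 (0.87 ± 0.26, adjusted p = 0.00715 with the block and 0.121 without it) and Pola2 (0.29 ± 0.20, 0.0424 and 0.521). Without T3 plus quetiapine replicate 1, 2 members passed with no block. For the interaction, the change with both agents less the sum of the single changes, no member passed at 96 h, where 0.0322% of all probe sets did, and none had an unadjusted p under 0.05. The estimates ran between -0.35 for Uhrf1 (-2.08 to 1.38) and 0.31 for Pola2 (-0.31 to 0.93), and these 95% intervals span departures from the sum in both directions.

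At 48 h fewer members passed. With T3 plus quetiapine 8 members fell against control, where 2.87% of all probe sets fell, and 32 fell with the block, against 12.1%. These 8 were Cdt1, Mcm4, Mcm7, Gins1, Gins3, Rfc3, Lig1 and Uhrf1, and the largest change was that of Uhrf1, with 8.80, 8.39 and 8.79 in T3 plus quetiapine, 8.87, 8.43 and 8.87 in T3, 9.28, 9.08 and 9.61 in quetiapine and 9.53, 9.39 and 9.67 in control cultures (-0.87 ± 0.17, adjusted p = 0.0149). Lig1 had 9.07, 8.80 and 9.02 in T3 plus quetiapine, 9.08, 8.99 and 9.01 in T3, 9.28, 9.14 and 9.31 in quetiapine and 9.32, 9.43 and 9.58 in control cultures and changed by -0.48 ± 0.09 (adjusted p = 0.0135). In both genes all arrays of T3 plus quetiapine and of T3 lay below all control arrays, as in 25 and 29 members in these comparisons, against 11.5% and 8.44% of all probe sets. The count of 8 was 5 without control replicate 1 or T3 plus quetiapine replicate 3, and 0 without control replicate 3 or T3 plus quetiapine replicate 2.

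With T3 at 48 h all 43 members had lower means than control (median -0.30), and none passed over all probe sets, where 0.254% fell. All T3 arrays lay below all control arrays in 29 of these members, against 8.44% of all probe sets. With the replicate block 28 fell, against 5.51% of all probe sets, led by Uhrf1 (-0.81 ± 0.17, adjusted p = 2.37e-04 with the block and 0.0514 without it), Mcm6 (-0.51 ± 0.14, 0.0031 and 0.127) and Rfc3 (-0.50 ± 0.11, 0.00117 and 0.0732). Without quetiapine replicate 3, 1 member passed. With quetiapine at 48 h no member passed with or without the block and none had an unadjusted p under 0.05, where 0.116% of all probe sets were called. The median was -0.07, and the largest shifts were those of Uhrf1 (-0.21 ± 0.17) and Mcm2 (-0.21 ± 0.10). Fen1, which rose with quetiapine at 96 h, had 8.42, 8.26 and 8.70 in T3 plus quetiapine, 8.41, 8.35 and 8.63 in T3, 8.54, 8.59 and 9.0 in quetiapine and 8.64, 8.76 and 9.0 in control cultures at 48 h and changed by -0.09 ± 0.15 with quetiapine (adjusted p = 0.937). With T3 plus quetiapine and T3 at 48 h Fen1 passed as lower with the block only (-0.34 ± 0.15 and -0.34 ± 0.15, adjusted p = 0.00567 and 0.0122 with the block, against 0.236 and 0.398 without it).

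Each group was also compared with itself over time. The highest of the 8 group means was that of control at 48 h in 33 members and of quetiapine at 48 h in 9, and the lowest was that of T3 plus quetiapine at 96 h in 30 and of T3 at 96 h in 11. In T3 plus quetiapine cultures 34 members fell and Fen1 rose at 96 h against 48 h, where 12.5% of all probe sets fell and 9.66% rose. In T3 cultures 21 fell, against 3.6%, and 38 fell with the block, against 12.1%. In quetiapine cultures none fell and Fen1 rose, where 0.68% of all probe sets fell and 1.97% rose, and 22 fell with the block, against 6.15%. In control cultures all 43 means were lower at 96 h (median -0.30). All 96 h control arrays lay below all 48 h control arrays in 22 members, against 5.79% of all probe sets. None of the members passed in control cultures with or without the block, where 0.00966% of all probe sets fell. Mcm6 changed by -1.89 ± 0.35 in T3 plus quetiapine cultures (adjusted p = 5.73e-04), -1.20 ± 0.35 in T3 (0.0455), -0.68 ± 0.35 in quetiapine (0.344) and -0.43 ± 0.35 in control cultures (0.736).

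Single arrays, left out in fits without the block, moved 3 of these counts. In T3 plus quetiapine cultures it was 22 members without T3 plus quetiapine replicate 2 of the 96 h arrays. In T3 cultures it was 1 without T3 replicate 2 at 96 h, and 3, 7 and 10 without T3 replicates 1, 2 and 3 at 48 h. In quetiapine cultures the Fen1 call was lost without quetiapine replicates 1 or 2 at 48 h or 2 or 3 at 96 h, and 7 members passed without T3 plus quetiapine replicate 1 at 96 h.

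**Figure D4:**
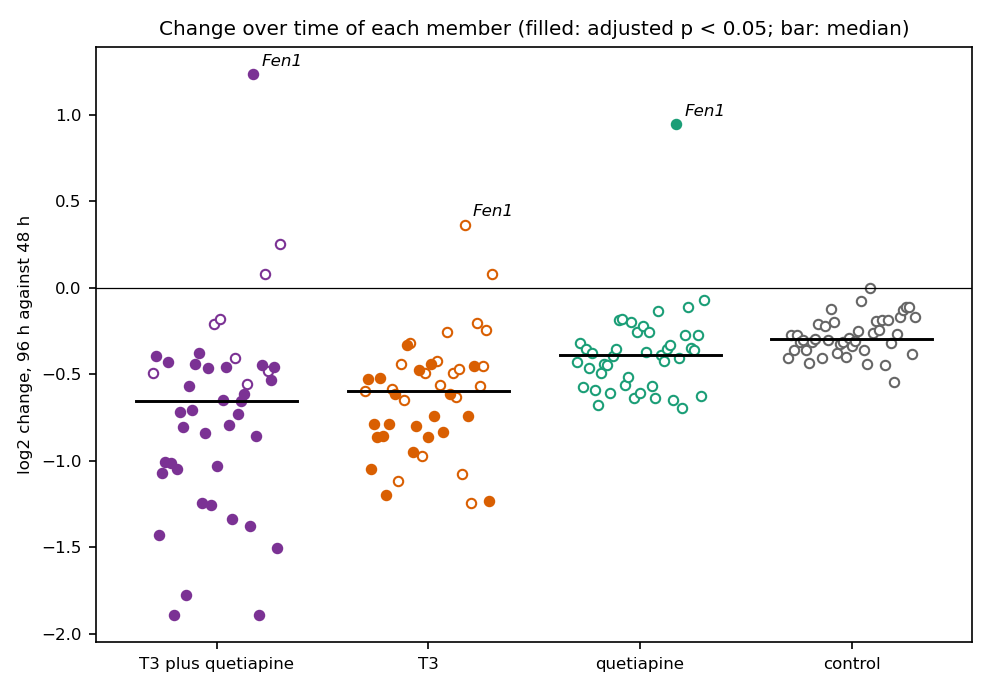
Log2 change of each of the 43 members at 96 h against 48 h (points) within T3 plus quetiapine, T3, quetiapine and control cultures, with the median as a bar; filled points have an adjusted p under 0.05 without the replicate block. In T3 plus quetiapine cultures 34 members are filled below 0, in T3 cultures 21, and Fen1 is filled above 0 in T3 plus quetiapine and in quetiapine cultures.

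Whether a treatment's effect differed between the times was tested as its effect at 96 h less that at 48 h. For T3 plus quetiapine Fen1 was the member that passed (1.42 ± 0.32, adjusted p = 0.0115), where 4.15% of all probe sets rose. With the block 21 members had a more negative effect at 96 h, against 9.46% of all probe sets, led by Mcm6 (-1.46 ± 0.49, adjusted p = 0.0128 with the block and 0.0814 without it) and Gins1 (-1.37 ± 0.47, 0.0195 and 0.0913), and 24 members passed without T3 plus quetiapine replicate 1 at 96 h. For T3 and for quetiapine no member passed, where 0.0483% and 0.106% of all probe sets did and 3 members and 1 member had an unadjusted p under 0.05. With the block Fen1 passed for quetiapine (1.13 ± 0.32, adjusted p = 0.00635), against 0.97% of all probe sets rising.

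Part of the spread between arrays followed the replicate number. Replicate 2 was the lowest of its group in 31 to 38 of the 43 members in each of the 8 groups, and the members' mean log2 expression per array was lowest in replicate 2 everywhere. At 96 h this mean was 8.17, 7.34 and 7.72 in T3 plus quetiapine, 7.94, 7.65 and 8.02 in T3, 8.44, 8.11 and 8.54 in quetiapine and 8.52, 8.39 and 8.66 in control cultures. T3 plus quetiapine replicate 1 stood apart as the highest of its group in 39 of 43 members and lay above T3 replicate 1, while replicates 2 and 3 lay below their T3 counterparts. The median SD of a member was 0.37 in T3 plus quetiapine cultures at 96 h, against 0.15 in control.

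**Figure D5:**
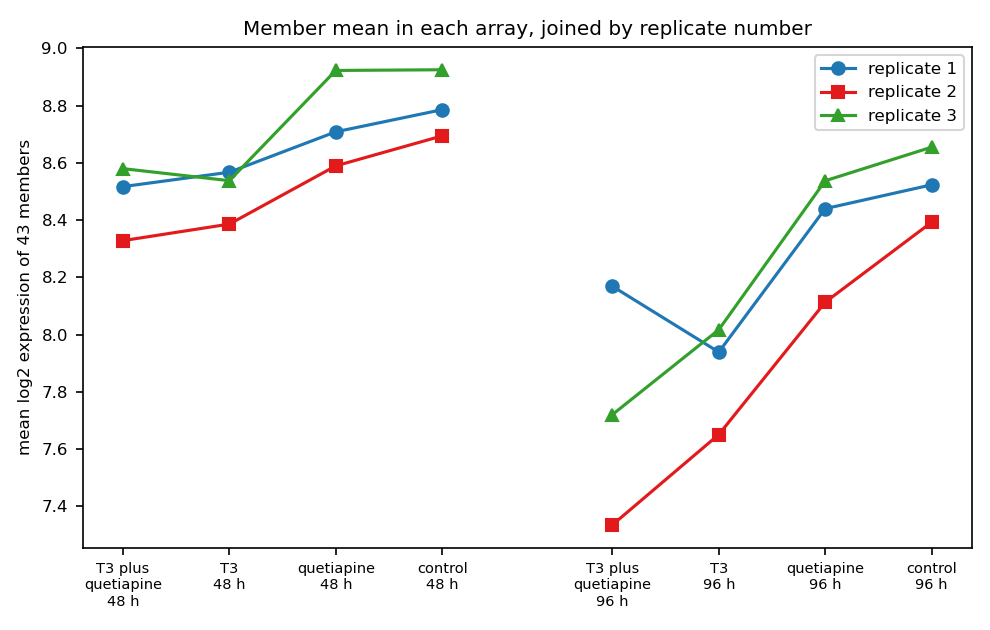
Mean log2 expression of the 43 members in each array, joined by replicate number across T3 plus quetiapine, T3, quetiapine and control cultures at 48 h and at 96 h. Replicate 2 is lowest in every group, and at 96 h T3 plus quetiapine replicate 1, at 8.17, lies above the other 2 arrays of its group.

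Other replication genes, outside the 43, were counted in the same way. Of 47 measured on a second list, 30 fell and 3 rose with T3 plus quetiapine at 96 h, 14 fell with T3 (34 with the block), and 1 fell and 1 rose with quetiapine. Over all probe sets 15.7% fell and 13.6% rose with T3 plus quetiapine, 6.07% fell with T3 (14.3% with the block), and 2.24% fell and 3.65% rose with quetiapine, and the same shares stand behind the gene counts that follow. The largest changes with T3 plus quetiapine were those of Top2a, topoisomerase II alpha (-2.0 ± 0.57, adjusted p = 0.0213), Timeless, of the fork protection complex (-1.73 ± 0.40, 0.00711), E2f2 (-1.61 ± 0.28, 0.00144) and E2f8 (-1.54 ± 0.41, 0.0157). Of 28 G2/M and mitosis genes 23 fell with T3 plus quetiapine and 1 with T3 (24 with the block), and none with quetiapine at 96 h. Their mean per array in T3 plus quetiapine cultures was 8.51, 6.62 and 7.06, with replicate 1 apart as in the replication genes. Among 8 inhibitors of cyclin-dependent kinases Cdkn1a rose with T3 plus quetiapine (1.86 ± 0.24, adjusted p = 2.14e-04) and Cdkn1c fell (-1.53 ± 0.14, 2.79e-05). Calls of the other inhibitors are not given here. The mean of the 8 per array at 96 h was 8.89 to 9.45 with T3 plus quetiapine and 9.21 to 9.37 in control cultures.

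Markers of other cell states and types moved beside the members. At 96 h all 9 myelin and mature oligodendrocyte genes rose with T3 plus quetiapine and 7 rose with T3 and with quetiapine, with mean log2 levels per array of 12.05 to 13.17, 11.59 to 12.72 and 11.27 to 12.22, against 10.07 to 10.49 in control cultures. Over all probe sets 13.6% rose with T3 plus quetiapine and 3.65% with quetiapine, and the share that rose with T3 is not given here. Of 5 precursor markers 3 fell with T3 plus quetiapine, 2 with T3 and 2 with quetiapine, at levels of 9.71 to 10.28, 10.12 to 10.56 and 10.16 to 10.68, against 10.72 to 11.13 in control cultures. Of 8 astrocyte markers 5 fell and 1 rose with T3 plus quetiapine, and the level was 10.23 to 11 in T3 plus quetiapine, 10.96 to 11.82 in T3, 10.36 to 11.40 in quetiapine and 11.37 to 11.88 in control cultures. The part of these cells in the members' changes was not tested. Of 10 microglia markers none passed with T3 plus quetiapine at 96 h, with or without the block and at an unadjusted p under 0.05. Of 11 vascular and fibroblast markers 1 fell and 1 rose, of 10 neuron markers 3 fell and 2 rose, of 5 Schwann cell markers 2 fell and 1 rose, and of 4 markers of the oligodendrocyte lineage 1 rose with T3 plus quetiapine, where 15.7% of all probe sets fell and 13.6% rose. Replicate 2 had the highest mean of the microglia markers in every group, as it had the lowest mean of the members. At 48 h this mean was 6.6 in control replicate 2, against 5.13 and 5.33 in the other control arrays. It was 6.02 in T3, 5.74 in quetiapine and 5.74 in T3 plus quetiapine replicate 2. The part of this in the members' spread was not tested. Without control replicate 2 at 48 h 6 members in place of 8 fell with T3 plus quetiapine. The difference between the 3' and 5' control probe sets of actin, a sign of RNA quality, was 0.70 to 0.77 in T3 plus quetiapine, 0.67 to 0.77 in T3, 0.60 to 0.72 in quetiapine and 0.64 to 0.67 in control cultures at 96 h on the log2 scale, and its part was not tested either.

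Of the members, 6 had several probe sets, and 10 probe sets were not used for the values above. With T3 plus quetiapine at 96 h the second brightest probe set of Cdc45 changed by -0.86 (adjusted p = 0.00215) and that of Lig1 by -0.58 (0.00312), in the direction of the ones used. The second brightest of Tk1 changed by -1.04 (0.0114), which passed where the brightest did not. The second probe set of Rfc5 changed by -0.40 (0.0444) and also passed where the one used did not, and those of Orc6 changed by 0.02 and 0.02. The dimmest probe sets of Cdc45 and Tk1, near log2 values of 5.24 and 5.99, changed by -0.22 (0.118) and 0.14 (0.551).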

How the data were processed

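RNA of 24 cultures was hybridised to Affymetrix rat expression arrays. The authors deposited RMA values on the log2 scale, per array and probe set, and per the labels RMA and limma were used; the sources used here give no versions. The table held 31099 probe sets, and after removal of 57 controls the remaining 31042 were tested with limma 3.58.1 in R 4.3.3 with Benjamini-Hochberg adjustment, in 1 fit of the 12 arrays of each time and, over time, 1 fit of all 24. A call is an adjusted p under 0.05. The replicate number was fitted as a block in an alternative. The study's design text states that 3 biological replicates each gave a sample of every condition, and same-numbered arrays deviated from their group means together (correlation 0.43 to 0.777 at 48 h and 0.309 to 0.69 at 96 h). Other alternatives, all without the block, were each array left out, probe sets under a mean of 6 left out, probe sets averaged per gene, arrays centred on their median and a fold limit of 1.5. Values in every array are given for the 2 members of each role with the largest change with T3 plus quetiapine at 96 h and for any member called against its role. The members and lists were chosen with earlier results of these data known. The fit was tested on simulated data. No 2 arrays held identical values. The number of arrays limits the precision, and no sequence is printed.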

Additional observations from a re-analysis of the deposited data

Results flagged for a closer look

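The effect of T3 plus quetiapine on Fen1 differed between the times in a test of the difference itself: it was 1.09 at 96 h and -0.34 at 48 h on the log2 scale, a difference of 1.42 ± 0.32 (95% interval 0.75 to 2.09, limma's adjusted p = 0.0115, and positive for each of the 3 replicate numbers). The 48 h effect passed with the replicate block only (adjusted p = 0.00567, against 0.236 without it).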

How the results depend on the processing

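Across the 20 counts of members called and their alternatives 359 values stayed within 1.5 times and 65 did not, and of the changes of named members none reversed, 491 kept their side of the threshold and 99 fell below it. The count with T3 plus quetiapine at 96 h (31) stayed within 1.5 times in every alternative run. The replicate block, which pairs the cultures, gave at 48 h 28 members with T3 (0 without it), 32 with T3 plus quetiapine (8), 19 for quetiapine against T3 (0) and 21 for T3 plus quetiapine against quetiapine (0). At 96 h it gave 36 with T3 (19), 3 with quetiapine (1), 20 for quetiapine against T3 (0), 2 for T3 plus quetiapine against T3 (0) and 31 for T3 plus quetiapine against quetiapine (6). Over time it gave 38 in T3 (21), 23 in quetiapine (1), 1 for the difference of the quetiapine effect (0) and 22 for that of T3 plus quetiapine (1). Without dim probe sets the counts were 4 for T3 at 48 h, 1 for quetiapine against T3 and 14 for T3 plus quetiapine against quetiapine at 96 h, and with probe sets averaged per gene 3, 2 and 10. With the fold limit they were 1 for T3 plus quetiapine at 48 h and 12 for T3 at 96 h. With each array left out in turn the counts ran between 0 and 1 for T3 at 48 h, 0 and 12 for T3 plus quetiapine at 48 h, 1 and 31 for T3 at 96 h, 0 and 1 for quetiapine at 96 h, 0 and 4 for quetiapine against T3, 0 and 2 for T3 plus quetiapine against T3, 0 and 28 for T3 plus quetiapine against quetiapine, 1 and 31 over time in T3, 0 and 7 in quetiapine, 22 and 36 in T3 plus quetiapine, and 1 and 24 for the difference of its effect. Beside the counts of these alternatives other than the block, no share of all probe sets is given. Whether the moves were particular to the members was not tested, and neither was their cause. No measure of the signal over background of the arrays was used, so how far it limits dim members such as Orc1, Tyms and Brca1 was not tested.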
